A study of Mus musculus with 24 samples.

Results

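The 9 genes described here encode parts of the TGF-beta pathway: the ligands Tgfb1 and Tgfb3, the receptors Tgfbr1, Tgfbr2 and Tgfbr3, and the SMAD-side genes Smad3, Smad7, Ski and Skil. They are 9 of the 23366 genes in the deposited tables, and all 9 were found in both tables. They were listed by name with earlier results of these data known, so the independence of their tests from that choice is not shown. Tgfb3 in particular was selected on its rise with dexamethasone in wild type cells. Its values in the comparisons behind that choice are therefore a description with no test, and it was tested only where other libraries were compared. Those tests shared a fit with the libraries behind the choice, so their independence from it is not shown.

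TGF-beta ligands are secreted in a latent form and, once released, bind the type II receptor Tgfbr2, which recruits and phosphorylates the type I receptor Tgfbr1. The active receptor phosphorylates SMAD2 and SMAD3, which enter the nucleus with SMAD4 and regulate transcription. Smad7 is an inhibitory SMAD that is induced by the pathway, while Ski and Skil bind SMADs and repress their targets. In CD8+ T cells the pathway is known for restraining cytotoxic genes and for raising the integrin gene Itgae.

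The libraries were made from CD8+ T cells of mouse spleen and lymph nodes, which had been sorted as naive cells and stimulated in culture through CD3 and CD28. All mice carried floxed Nr3c1, the glucocorticoid receptor gene. Cells without the E8i-Cre transgene, which is active in the CD8 lineage, served as wild type (WT), and cells with it lack the receptor through Nr3c1 deletion (cKO). At day 3 there were 4 groups: WT and cKO cells, each left without glucocorticoid (Ctrl) or given the synthetic glucocorticoid dexamethasone (Dex) at 10 nM. At day 9, following a rest in IL2 and a second stimulation, 4 WT groups had received nothing further (Ctrl), 10 nM Dex, 25 ng/ml of the cytokine IL27, or both (Dex+IL27). Each of the 8 groups held 3 libraries of 1000 cells, 24 in all. The labels do not say whether the libraries of a group came from separate mice, and the p-values therefore measure library-to-library spread, which may be technical.

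The depth of a library lay between 14221883 and 19018440 estimated counts. Nr3c1 lay between 14.9 and 21.4 CPM (counts scaled to library size, with TMM) in WT libraries at day 3 and between 5.32 and 8.20 CPM in cKO libraries, without overlap, so transcripts of the gene were still counted in cKO cells. The 4 CD8 T cell markers summed to between 895 and 1299 CPM. Of other cell types, the 4 fibroblast markers summed to at most 0.943 CPM, the 4 B cell markers to between 6.38 and 20.9 CPM, and the 4 CD4 T cell markers to between 11.4 and 22.3 CPM. The 5 platelet and erythroid markers summed to between 0.401 and 1.24 CPM in day 9 Ctrl and between 2.27 and 5.95 CPM in day 9 Dex, with Itga2b at 0.679 and 1.71 CPM and Hbb-b1 at 0.0752 and 2.55 CPM on average, while Pf4 and Ppbp were at 0 in all groups. The 6 myeloid and dendritic markers summed to between 1.68 and 2.43 CPM in day 9 Ctrl and between 10.1 and 13.9 CPM in Dex+IL27, where Itgam averaged 9.78 CPM and Lyz2 was at 0. The 3 NK cell markers summed to between 76.8 and 90.1 CPM in day 9 Ctrl and between 122 and 177 CPM in the other day 9 groups. Nearly all of that was Klrc1, at 83.2 CPM in Ctrl and 168 CPM in IL27, while Ncr1 averaged at most 0.0354 CPM in any group. The part of these markers in the changes below was not tested. In bulk RNA, a change in the share of cells that express a gene cannot be told apart from a change per cell. The IL27 replicate 1 library stood apart from its group, with a chi-square per gene of 26.8 and 16.0 against the other IL27 libraries, which differed from each other by 6.79. The cKO Dex replicate 6 library differed from its group by 14.2 and 10.6, against 4.42 for the other pair.

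Promoter sequence from RefSeq (build GRCm38.p6, windows of 300 bases around the start of transcription, a different build from the mm9 of the submitters' processing notes) was at hand for 5 of the 9 genes: Tgfb1, Tgfbr1, Tgfbr2, Smad3 and Ski. The windows of Tgfbr2 and Smad3, a receptor and a SMAD gene that both rose with Dex and with IL27 at day 9, are shown. The capitals mark a match to the SMAD box CAGAC on either strand. The Tgfbr2 window is chr9:116175314-116175613 on the minus strand, and the Smad3 window is chr9:63757945-63758244 on the minus strand.
Tgfbr2: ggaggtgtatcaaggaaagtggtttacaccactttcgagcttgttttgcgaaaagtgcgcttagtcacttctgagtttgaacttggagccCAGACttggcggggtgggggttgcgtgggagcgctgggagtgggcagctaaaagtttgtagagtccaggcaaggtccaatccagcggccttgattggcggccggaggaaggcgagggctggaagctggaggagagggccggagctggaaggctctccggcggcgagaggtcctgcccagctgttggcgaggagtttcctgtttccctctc
Smad3: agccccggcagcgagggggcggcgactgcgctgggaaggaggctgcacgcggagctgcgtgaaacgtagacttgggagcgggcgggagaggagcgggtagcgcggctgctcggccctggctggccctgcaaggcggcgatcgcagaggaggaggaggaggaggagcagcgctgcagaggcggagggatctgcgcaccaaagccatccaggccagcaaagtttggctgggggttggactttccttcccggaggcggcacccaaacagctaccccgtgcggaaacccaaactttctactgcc
The Tgfbr2 window held 1 such box, at position -160 from the start site, and the Smad3 window held none. The box occurs in 49.6% of all 32817 promoter windows. The other motifs searched on both strands were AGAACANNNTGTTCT, the glucocorticoid receptor element (0.00914% of windows), its single arm AGAACA (19%), which the full element contains, the SMAD element GTCTAGAC (0.213%) and the STAT element TTCNNNGAA (8.29%), the last chosen after the IL27 results were seen. None of these 4 occurred in the windows of the 5 genes, which says only that these letters are not in these windows.

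Among the ligands, Tgfb3 moved from the lowest to the second highest of the 9 genes per length. In WT cells at day 3 the Ctrl libraries held 0.634, 0.996 and 0.874 CPM and the Dex libraries 9.51, 13.3 and 9.43 CPM. At day 9 the Ctrl libraries held 0.338, 0.401 and 0.106 CPM and the Dex libraries 29.2, 18.9 and 20.3 CPM. The Dex libraries were far above the Ctrl libraries on both days, by 3.67 ± 0.29 (log2 ± SE, n = 3 per group) at day 3 and 6.29 ± 0.48 at day 9, values that chose the gene and carry no test. The day 9 change rests on 15 counts over the 3 Ctrl libraries and was 2.80 on the log2(FPKM + 1) scale, which understates changes of low genes.

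In cKO cells Tgfb3 was at 1.93, 1.31 and 2.38 CPM without Dex and at 2.07, 2.95 and 2.96 CPM with Dex, so the groups overlapped. This comparison used libraries other than those of the WT Dex rise. Its change of 0.50 ± 0.27 did not pass the test (edgeR adjusted p = 1). The unadjusted p was 0.085 (edgeR), and 0 of 11967 genes passed in that comparison, so the adjusted test says little about a single gene. The change passed in none of 17 alternatives. It ran from 0.30 to 0.71 with 1 library left out, and was 0.42 without cKO Dex replicate 6. Without Dex, the cKO libraries were all above the WT libraries (1.16 ± 0.32, described), and with Dex they were all below them (-2.01 ± 0.25, described).

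With IL27 alone Tgfb3 stood at 12.5, 3.94 and 7.14 CPM, and with Dex and IL27 together at 41.6, 40.3 and 56.7 CPM. Every Dex+IL27 library was above every other library of the series. The rise from IL27 to Dex+IL27 was 2.58 ± 0.30 and passed the test (edgeR adjusted p = 4.1e-05). Its libraries were outside the Dex against Ctrl comparisons, but it too is a Dex rise in WT cells. Earlier results of these data were known when genes and tests were chosen, so the independence of this p-value is not shown. The rise passed in all 17 alternatives, with values from 2.19 to 3.07. The highest was without the IL27 replicate 1 library, which held the most Tgfb3 of its group. The change with IL27 against Ctrl was 4.75 ± 0.52 (4.25 without IL27 replicate 1), and that from Dex to Dex+IL27 was 1.03 ± 0.28, both described. By group mean, Tgfb3 ran in the order Dex+IL27, day 9 Dex, WT Dex at day 3, IL27, cKO Dex, cKO Ctrl, WT Ctrl at day 3 and day 9 Ctrl. Libraries overlapped between WT Dex at day 3 and IL27 and between cKO Dex and cKO Ctrl, and between no other neighbours in that order.

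**Figure D1:**
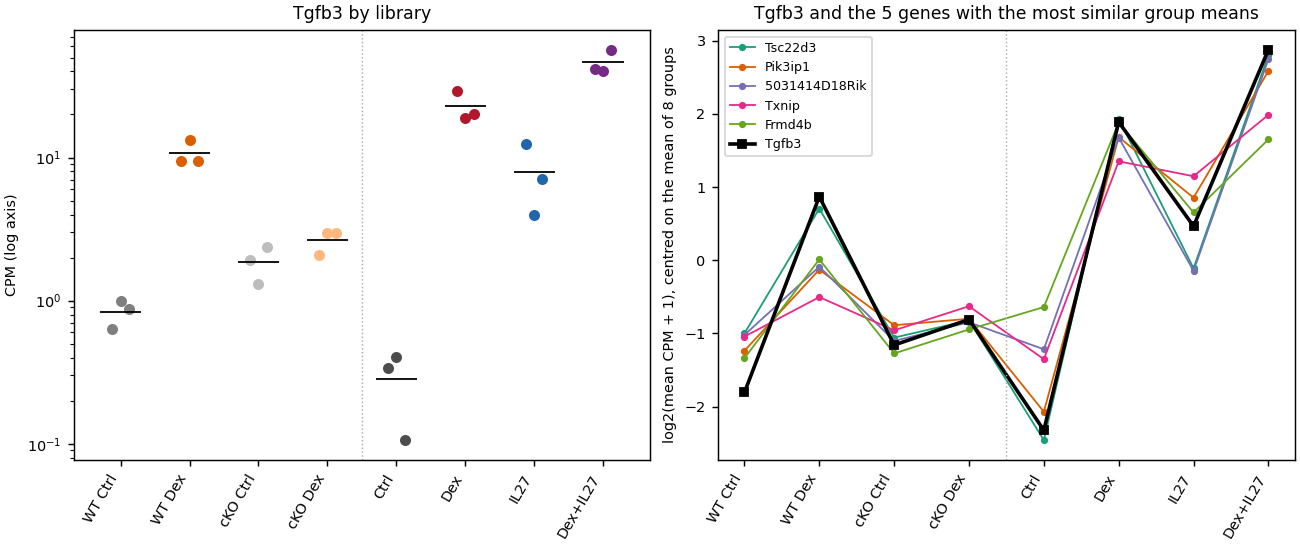
Left, Tgfb3 CPM in each library on a log axis, with group means as bars. Right, log2(mean CPM + 1) over the 8 groups, centred on each gene's mean, for Tgfb3 (black squares) and the 5 genes closest to it. Tgfb3 is highest in Dex+IL27, at 46.2 CPM on average, and lowest in day 9 Ctrl, at 0.282 CPM.

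The genes whose 8 group means lay closest to those of Tgfb3 were Tsc22d3, with a root-mean-square difference of 0.362 on the centred log2(CPM + 1) scale, Pik3ip1 (0.466), 5031414D18Rik (0.632), Txnip (0.793) and Frmd4b (0.819). Tsc22d3, also called Gilz, is a known glucocorticoid target. The 8 groups include those on whose Dex rise Tgfb3 was selected, so closeness to other genes that are high with Dex follows in part from that choice. Of these 5 genes, 3 were again among the closest 5 with a pseudocount of 0.1, and 3 with FPKM in place of CPM.

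Tgfb1, the ligand that T cells are best known to make, was low in all groups, with 0.814 to 2.39 CPM and 13 to 44 counts per library. Its highest and lowest group means differed by 1.5 times, neighbouring groups in their order all overlapped, and it passed the test in none of the 12 comparisons (edgeR). The SE of its log2 changes between groups lay between 0.31 and 0.42.

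At day 3 the receptor and SMAD genes changed little with Dex in WT cells. Of the 8 members tested, 1 passed, against 9.43% of all genes tested in that comparison, a share close to the background. This was Tgfbr2, the ligand-binding type II receptor, at 32.3, 31.7 and 38.2 CPM in Ctrl and 46, 48.4 and 47.7 CPM in Dex. Every Dex library was above every Ctrl library, and the rise was 0.48 ± 0.10 (edgeR adjusted p = 0.0052). It was lost with all 24 libraries in 1 fit (adjusted p = 0.064). The other 7 members had changes from -0.24 to 0.32 with adjusted p of 0.36 or more.

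In cKO cells none of the 9 members passed with Dex by edgeR, against 0% of all genes tested. At an unadjusted p under 0.05 there was 1, Smad3, and 399 genes in all. Smad3, the receptor-activated SMAD, was at 16.9, 22.2 and 25.8 CPM in cKO Ctrl and at 15.1, 16.3 and 14.9 CPM in cKO Dex, with a change of -0.49 ± 0.13 (edgeR adjusted p = 1). The libraries of the groups did not overlap. The difference between the Dex changes of WT and cKO cells passed for none of the 8 members tested, against 2.95% of all genes, with 2 members at an unadjusted p under 0.05. For Tgfbr2 that difference was 0.47 ± 0.14 (edgeR adjusted p = 0.087), and it passed with no low-count filter (adjusted p = 0.011), with the DESeq2 test (0.041), without WT Ctrl replicate 3 (0.043) and without cKO Dex replicate 4 (0.018).

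Without Dex, 3 of the 8 members tested differed between cKO and WT cells, against 2.36% of all genes. Tgfbr2 was higher in cKO cells, at 48.8, 50.1 and 50.2 CPM, by 0.55 ± 0.10 (edgeR adjusted p = 0.01), and no library overlapped with WT. Smad3 was higher by 0.53 ± 0.13 (edgeR adjusted p = 0.042). That difference and the Smad3 change with Dex in cKO cells share the same cKO Ctrl libraries. The Tgfbr2 difference and its rise with Dex in WT cells share the same WT Ctrl libraries. Skil, a SMAD corepressor, was lower, at 40, 43.6 and 42.8 CPM against 53.2, 50.8 and 61.1 CPM, by -0.38 ± 0.08 (edgeR adjusted p = 0.023). These calls did not hold in every alternative. Tgfbr2 passed in 12 of 16, Skil in 8 and Smad3 in 6. Smad3 and Skil were lost in every limma fit on log2 FPKM. Calls were also lost when 1 library was left out. Without WT Ctrl replicate 1 none of the 3 passed, with adjusted p of 0.054 for Tgfbr2, 0.094 for Smad3 and 0.058 for Skil. Their changes in that fit were 0.51, 0.58 and -0.40, and the count of all genes called fell from 283 to 74. Tgfbr2 was also lost without WT Ctrl replicate 2 (0.065), Skil without WT Ctrl replicate 3 (0.066), cKO Ctrl replicate 4 (0.091) and cKO Ctrl replicate 6 (0.062), and Smad3 without WT Ctrl replicate 2 (0.13) or 3 (0.092) and cKO Ctrl replicate 5 (0.099) or 6 (0.15).

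With Dex, none of the 8 members tested passed between cKO and WT cells by edgeR, against 6.9% of all genes. At an unadjusted p under 0.05 there was 1, Skil, at 42.7, 40.6 and 43.3 CPM in cKO Dex and 52.8, 53.7 and 46.7 CPM in WT Dex, with a change of -0.28 ± 0.08 (edgeR adjusted p = 0.0503). It passed in 5 of 16 alternatives: with the DESeq2 test (adjusted p = 0.032), when low counts were kept (0.039), with scaling by library totals (0.0494), with Rn45s left out (0.0488) and without WT Dex replicate 3 (0.037).

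**Figure D2:**
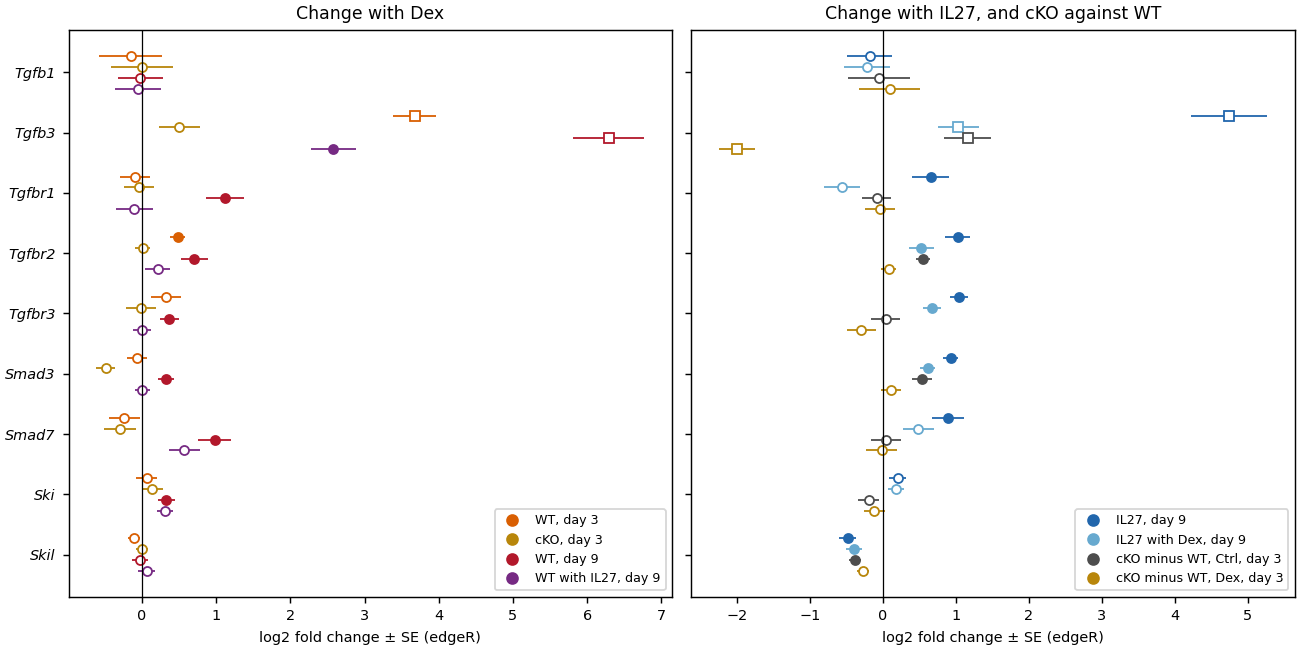
Log2 fold change ± SE for each gene with Dex (left) and with IL27 or between cKO and WT (right). Filled circles passed the test (edgeR adjusted p under 0.05), open circles did not, and open squares are Tgfb3 values that are described with no test. Tgfb3 lies at 6.29 with Dex at day 9, and the other genes lie between -0.57 and 1.12.

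At day 9 the receptors and most SMAD-side genes were higher with Dex. Of the 8 members tested 6 passed, all higher, against 55.6% of all genes tested, so most genes were called on that day. Those that rose were 3473 of all 12320 genes. The median change of the 8 was 0.35, against 0.03 for all genes. Tgfbr1, the type I receptor kinase, was at 2.72, 2.75 and 3.34 CPM in Ctrl and 5.87, 7.28 and 6.41 CPM in Dex, a rise of 1.12 ± 0.25 (edgeR adjusted p = 0.0015). Smad7, the inhibitory SMAD, was at 2.59, 4.41 and 3.93 CPM in Ctrl and 7.41, 7.6 and 7.06 CPM in Dex, a rise of 0.98 ± 0.22 (edgeR adjusted p = 0.0016). For both genes every Dex library was above every Ctrl library.

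Tgfbr2 went from 30.7, 46.4 and 39.9 CPM in Ctrl to 74.6, 57.5 and 63.1 CPM in Dex, again without overlap, a rise of 0.71 ± 0.18 (edgeR adjusted p = 0.0032). Smaller rises were those of Tgfbr3, the co-receptor betaglycan (0.37 ± 0.13), Ski (0.33 ± 0.11) and Smad3 (0.32 ± 0.10), with edgeR adjusted p of 0.02, 0.022 and 0.017. Each was lost without some libraries. Tgfbr3 did not pass without Ctrl replicate 1 (0.078) or 2 (0.10) or Dex replicate 3 (0.095), Ski without Ctrl replicate 3 (0.10) or Dex replicate 1 (0.092) or 2 (0.070), and Smad3 without Ctrl replicate 3 (0.063) or Dex replicate 1 (0.069). Skil and Tgfb1 had adjusted p of 0.87 and 0.96.

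The change with Dex differed between day 9 and day 3 for 2 of the 8 members tested, against 39.6% of all genes, a smaller share than the background. They were Tgfbr1 (difference 1.24 ± 0.32, edgeR adjusted p = 0.0036) and Smad7 (1.25 ± 0.31, edgeR adjusted p = 0.0024). At day 3 their changes with Dex were -0.09 and -0.24, neither of which passed. Both genes were lower in day 9 Ctrl than in day 3 Ctrl libraries without overlap. Smad3, at 0.42 ± 0.17 (edgeR adjusted p = 0.051), passed without day 9 Dex replicate 3 (0.044) and with only the groups compared (0.031). Culture history runs with day, so day and history cannot be told apart.

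IL27 changed 6 of the 8 members tested at day 9, 5 of them higher, against 57.4% of all genes. Those that rose were 3606 of all 12320 genes. The median change of the 8 was 0.77, against 0.03 for all genes. Tgfbr3 went from 12.8, 12 and 16 CPM in Ctrl to 31.5, 27.8 and 27.3 CPM in IL27, a rise of 1.05 ± 0.12 (edgeR adjusted p = 4.2e-06). Smad3 went from 14.6, 15.4 and 14 CPM to 29.2, 30.3 and 26.4 CPM, a rise of 0.93 ± 0.10 (edgeR adjusted p = 2.4e-06). Both separated the groups completely.

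Tgfbr2 rose by 1.02 ± 0.18 to 94.3, 67.4 and 82.7 CPM (edgeR adjusted p = 0.00015), and Smad7 by 0.89 ± 0.22 to 9.04, 5.25 and 6.61 CPM (edgeR adjusted p = 0.0029). Skil fell from 53.2, 52.9 and 56 CPM to 31.6, 43.7 and 43.4 CPM, by 0.49 on the log2 scale (edgeR adjusted p = 0.0017). Tgfbr1 was higher by 0.65 ± 0.25 (edgeR adjusted p = 0.039), with IL27 libraries at 6.14, 4.83 and 3.29 CPM, the last below the highest Ctrl library. It passed in 7 of 17 alternatives, and was lost without IL27 replicate 1 (adjusted p = 0.20) or 2 (0.078) and without Ctrl replicate 1 (0.11) or 2 (0.10). Without IL27 replicate 1 the other 5 still passed, with Tgfbr3 at 0.98, Smad3 at 0.91, Tgfbr2 at 0.91, Smad7 at 0.66 and Skil at -0.35.

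With Dex and IL27 together, 6 of the 8 members tested differed from Ctrl, 5 of them higher, against 66.9% of all genes. Those that rose were 4220 of all 12320 genes. Smad7 was at 10.3, 10.1 and 10.1 CPM, the highest of its 8 groups, 1.47 ± 0.22 above Ctrl (edgeR adjusted p = 2.7e-05). Tgfbr2 was 1.23 ± 0.18 above Ctrl, Tgfbr3 1.05 ± 0.12, Smad3 0.93 ± 0.10 and Ski 0.51 ± 0.11, and Skil was at -0.42 ± 0.11. Tgfbr1 did not pass, at 0.55 ± 0.26 (edgeR adjusted p = 0.069), and passed without Dex+IL27 replicate 3 (0.027). The day 9 comparisons with Ctrl share the same 3 Ctrl libraries.

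Adding IL27 to Dex changed 4 of the 8 members tested, 3 of them higher, against 32% of all genes. Those that rose were 1834 of all 12320 genes. Tgfbr3 was higher by 0.68 ± 0.12 (edgeR adjusted p = 0.00084) and Smad3 by 0.61 ± 0.10 (edgeR adjusted p = 0.00051), both without overlap. Tgfbr2 was higher by 0.53 ± 0.17 (edgeR adjusted p = 0.03), with overlapping libraries, and Skil lower by -0.40 ± 0.11 (edgeR adjusted p = 0.014). Tgfbr2 was lost without Dex+IL27 replicate 1 (0.16) or 3 (0.068) and Dex replicate 2 (0.11) or 3 (0.093), and Skil without Dex+IL27 replicate 3 (0.058) or Dex replicate 2 (0.069).

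Adding Dex to IL27 changed 1 of the 9 members tested, against 26.1% of all genes, a smaller share than the background. It was Tgfb3, which was chosen for its Dex rise, and none of the other 8 passed. Smad7 stood at 0.57 ± 0.21 (edgeR adjusted p = 0.056) and Ski at 0.31 ± 0.11 (edgeR adjusted p = 0.054). Smad7 passed without IL27 replicate 1, at 0.80 (adjusted p = 0.0091). The other 6 had adjusted p from 0.39 to 0.99.

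The Dex change with IL27 differed from that without it for 1 of the 8 members tested, against 28.5% of all genes. Tgfbr1 was 1.12 higher with Dex in the absence of IL27 and -0.10 ± 0.25 in its presence, a difference of -1.22 ± 0.35 (edgeR adjusted p = 0.018) that passed in all 22 alternatives. Tgfbr3 passed there without Ctrl replicate 3 (-0.50, adjusted p = 0.041). Tgfbr2, at -0.50 ± 0.24 (edgeR adjusted p = 0.15), passed when low counts were kept (0.012) and when both days were fitted together (0.049). For Tgfb3 the same difference was -3.71 ± 0.63, described, and it was -0.61 on the log2(FPKM + 1) scale.

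Per length, on the deposited FPKM scale, Tgfbr2 had the highest mean of the 9 genes in 7 of the 8 groups and Skil in WT Ctrl at day 3, where Skil at 7.99 FPKM and Tgfbr2 at 7.31 FPKM overlapped within their SD. Tgfb3 was the lowest in WT Ctrl at day 3, at 0.25 FPKM, in day 9 Ctrl, at 0.083 FPKM, and in cKO Ctrl, at 0.56 FPKM, where it overlapped within SD with Tgfb1. In Dex+IL27 it was second, at 13.4 FPKM, and overlapped within SD with Tgfbr2 at 19.2 FPKM. Tgfb1 stayed between 0.643 and 0.967 FPKM.

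**Figure D3:**
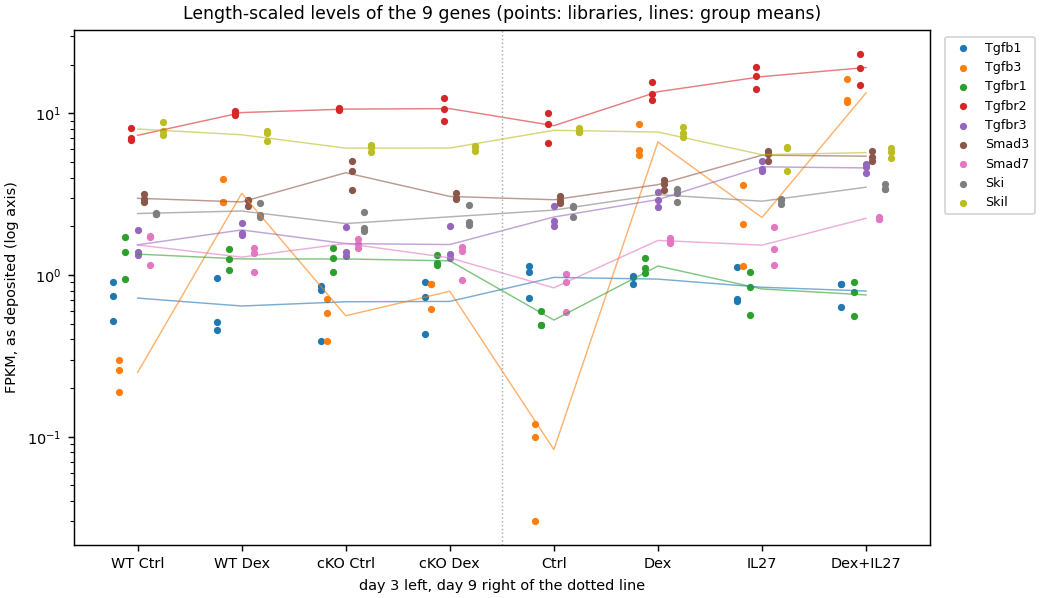
Deposited FPKM of the 9 genes on a log axis. Points are libraries and lines join group means. Tgfb3 runs from 0.083 FPKM in day 9 Ctrl to 13.4 FPKM in Dex+IL27.

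Other genes of the pathway were followed in 5 lists of 68 genes. Of the 13 genes of ligand release and activation, 6 were tested at day 3 and 7 at day 9. With Dex at day 3, 2 rose, where 9.43% of all genes were called: Furin, the protease that cleaves the TGF-beta precursor (0.77 ± 0.14, edgeR adjusted p = 0.0012), and Itgav, the integrin chain that helps to release active ligand (0.62 ± 0.16, edgeR adjusted p = 0.019). The other integrin chains of the list, Itgb6 and Itgb8, averaged at most 0.277 and 0.0619 CPM in any group. With Dex at day 9, 4 rose, among them Itgav (1.42 ± 0.12), Furin (0.90 ± 0.16) and the latent TGF-beta binding protein Ltbp4 (1.22 ± 0.22), and 2 fell. With IL27, 3 rose, including Ltbp3 (1.81 ± 0.19) and Ltbp4 (1.20 ± 0.22), and 3 fell, including Furin (-1.90 ± 0.17). Of all genes, 55.6% were called with Dex at day 9 and 57.4% with IL27, and these shares are the background for the day 9 counts of all 5 lists.

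Of 23 tested regulators of SMAD signalling, 8 rose and 4 fell with Dex at day 9, including Smurf2, an E3 ligase that acts with SMAD7 on the receptors (1.51 ± 0.17), and Strap, a partner of SMAD7 (-0.92 ± 0.08). With IL27 4 rose and 6 fell, among them Strap (-0.85 ± 0.08) and Smad2 (-0.35 ± 0.08). Both counts, 12 and 10 of 23, were below the background share. At day 3 none of the 23 passed with Dex in WT cells by edgeR, against 9.43% of all genes, and 5 had an unadjusted p under 0.05. Of 8 tested superfamily receptors, 3 rose with Dex at day 9, including the type I receptor Acvrl1 (2.73 ± 0.54), and 2 rose with IL27, again including Acvrl1 (3.92 ± 0.52), both smaller shares than the background. Acvrl1 averaged 1.02 CPM in day 9 Ctrl, on 55 counts over the group, and ran from 5.25 to 26.3 CPM among the IL27 libraries. At day 3 none of the 8 passed with Dex in WT cells by edgeR, against 9.43% of all genes, and 1 had an unadjusted p under 0.05.

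Genes known to respond to TGF-beta moved in both directions. Of 7 tested genes that it is known to raise, 3 rose and 1 fell with Dex at day 9, with Itgae at 2.16 ± 0.37 and Rgs16 at -1.06 ± 0.19. With IL27 3 rose and 2 fell, with Itgae at 1.87 ± 0.37 and Id3 at -1.32 ± 0.17. The first count, 4 of 7, is near the background share, and the second, 5 of 7, is within 1 gene of it. Itgae averaged 0.498 CPM in day 9 Ctrl, on 27 counts over the group. With Dex at day 3, where 9.43% of all genes were called, none of the 5 tested rose. Of the 5, 2 fell, Rgs16 (-1.15 ± 0.19) and Id3 (-0.46 ± 0.11). Of 9 tested genes that it is known to lower in CD8 T cells, 8 fell and 1 rose with Dex at day 9, where Gzmb changed by -1.36 ± 0.07 and Ifng by -6.04 ± 0.52, while Gzma rose by 3.96 ± 0.33. Of all 12320 genes tested, 3377 fell in that comparison. With IL27, 7 fell and 1 rose, where 3468 of all genes fell. With Dex at day 3, 4 fell and 1 rose, where 539 of all 11967 genes tested fell. Glucocorticoids and IL27 act on many of these genes by other routes, and the part of TGF-beta signalling was not tested.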

How the data were processed

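RNA was measured in 24 libraries of 1000 cells with a SMART-Seq2 variant, per the labels' protocols. The estimated counts were deposited by the authors as unnormalized RSEM values, and a second table, deposited by the authors, holds FPKM after TMM scaling, per the file headers. TopHat, RSEM, DESeq and mm9 are named, without versions, per the submitters' processing notes. Reads carry no molecular identifiers.

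Rounded counts entered edgeR 4.0.16 (quasi-likelihood F-test, two-sided; R 4.3.3) with TMM scaling and filterByExpr (minimum count 10, minimum total 15). The 12 libraries of a day shared a fit, and all 24 were fitted for day 9 minus day 3. This left 11967, 12320 and 12666 genes, over which p-values were adjusted (Benjamini-Hochberg); adjusted p under 0.05 passed. Each SE is the absolute log2 change divided by the square root of its F statistic, with spread estimated over all libraries of the fit. The 12 comparisons and their alternatives (DESeq2 1.42.0, limma 3.58.1 on log2 FPKM, other scalings and filters, each library left out) are given in the closing section. All 9 members were named, with up to 3 called genes per list and comparison by lowest p. Members, lists and tests were chosen with earlier results of these data known. The fits were tested on simulated data. A planned comparison of protein sequences was not run. Same-numbered libraries were not treated as pairs.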

Additional observations from a re-analysis of the deposited data

Results flagged for a closer look

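The change of Tgfbr1 with Dex at day 9 differed between cells cultured with and without IL27, by -1.22 ± 0.35 on the log2 scale in the test of the difference itself (edgeR adjusted p = 0.018). The Dex changes of Tgfbr1 and Smad7 differed between day 9 and day 3, by 1.24 ± 0.32 (edgeR adjusted p = 0.0036) and 1.25 ± 0.31 (edgeR adjusted p = 0.0024). Of all genes, 28.5% passed for the Dex by IL27 difference and 39.6% for day 9 minus day 3. The members passed at smaller shares, 1 and 2 of the 8 tested. All 3 differences passed in each of the 22 alternatives run, the first narrowly without IL27 replicate 1 (edgeR adjusted p = 0.0475). Values were from -1.43 to -0.53 for the first, from 0.53 to 1.44 for the second and from 0.67 to 1.43 for the third. The 3 share the same day 9 Ctrl and Dex libraries, so they are not separate observations. Both genes had their lowest group mean in day 9 Ctrl, at 2.94 CPM for Tgfbr1 and 3.65 CPM for Smad7.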

How the results depend on the processing

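Of 108 changes of single members, 32 changed sign in at least 1 alternative, 103 times in all. None of the 32 passed the test as reported, none of the 103 values passed it, and the largest was 0.24 in size. Of these, 78 came from leaving out 1 library. With limma on log2(FPKM + 1), no filter, the value was 0.00473 for Tgfb1 (Dex in cKO cells), -0.00136 for Tgfbr2 (Dex in cKO cells), -0.0175 for Tgfbr3 (Dex+IL27 against IL27) and -0.0171 for Smad3 (Dex+IL27 against IL27). With limma on log2(FPKM + 1), the value was -0.00136 for Tgfbr2 (Dex in cKO cells), -0.0175 for Tgfbr3 (Dex+IL27 against IL27) and -0.0171 for Smad3 (Dex+IL27 against IL27). With limma on log2(FPKM + 0.1), the value was -0.00243 for Tgfbr2 (Dex in cKO cells), -0.0207 for Tgfbr3 (Dex+IL27 against IL27) and -0.0198 for Smad3 (Dex+IL27 against IL27). With the replicate block, the value was -0.000598 for Tgfbr2 (Dex in cKO cells). With Rn45s left out, the value was -7.87e-05 for Skil (Dex in cKO cells). With scaling by library totals, the value was -0.00212 for Tgfbr3 (cKO against WT Ctrl), -0.000284 for Smad7 (cKO against WT Ctrl), -0.0577 for Tgfbr3 (Dex+IL27 against IL27) and -0.0576 for Smad3 (Dex+IL27 against IL27). With all 24 libraries in 1 fit, the value was 0.00872 for Tgfb1 (Dex at day 9), 0.00446 for Skil (Dex at day 9), -0.0232 for Tgfbr3 (Dex+IL27 against IL27) and -0.0216 for Smad3 (Dex+IL27 against IL27). With DESeq2 size factors, the value was -0.0109 for Tgfbr3 (Dex+IL27 against IL27) and -0.0092 for Smad3 (Dex+IL27 against IL27). With DESeq2 Wald test, the value was -0.0108 for Tgfbr3 (Dex+IL27 against IL27) and -0.00873 for Smad3 (Dex+IL27 against IL27). With no low-count filter, the value was 0.000167 for Ski (the Dex by IL27 difference). Over the fits that left out 1 library, those with a changed sign ranged as follows. Tgfb1 ranged from -0.55 to 0.0388 for Dex in WT cells at day 3, from -0.28 to 0.24 for Dex in cKO cells, from -0.55 to 0.13 for the genotype difference of the Dex change, from -0.24 to 0.22 for cKO against WT Ctrl, from -0.15 to 0.49 for cKO against WT Dex, from -0.20 to 0.11 for Dex at day 9, from -0.18 to 0.20 for Dex+IL27 against IL27, from -0.17 to 0.23 for the Dex by IL27 difference and from -0.0235 to 0.57 for day 9 minus day 3. Tgfbr1 ranged from -0.28 to 0.12 for Dex in WT cells at day 3, from -0.16 to 0.0793 for Dex in cKO cells, from -0.24 to 0.16 for the genotype difference of the Dex change, from -0.29 to 0.11 for cKO against WT Ctrl, from -0.14 to 0.0653 for cKO against WT Dex and from -0.31 to 0.13 for Dex+IL27 against IL27. Ski ranged from -0.0321 to 0.11 for Dex in WT cells at day 3, from -0.21 to 0.0605 for the genotype difference of the Dex change and from -0.0979 to 0.0503 for the Dex by IL27 difference. Tgfbr2 ranged from -0.11 to 0.12 for Dex in cKO cells and from -0.0493 to 0.19 for cKO against WT Dex. Tgfbr3 ranged from -0.25 to 0.20 for Dex in cKO cells, from -0.17 to 0.21 for cKO against WT Ctrl, from -0.0389 to 0.0664 for Dex+IL27 against IL27 and from -0.0836 to 0.22 for day 9 minus day 3. Skil ranged from -0.0348 to 0.0285 for Dex in cKO cells, from -0.0874 to 0.0209 for Dex at day 9, from -0.0734 to 0.15 for Dex+IL27 against IL27 and from -0.0497 to 0.18 for the Dex by IL27 difference. Smad7 ranged from -0.12 to 0.20 for the genotype difference of the Dex change, from -0.13 to 0.14 for cKO against WT Ctrl and from -0.15 to 0.16 for cKO against WT Dex. Smad3 ranged from -0.0617 to 0.0505 for Dex+IL27 against IL27. The cause of these sign changes was not tested.

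The count of members that passed moved by more than 1.5 times in these cases. For Dex in WT cells at day 3 it went from 1 to 0 with all 24 libraries in 1 fit. For the genotype difference of the Dex change it went from 0 to 1 with no low-count filter and DESeq2 Wald test. For cKO against WT Ctrl it went from 3 to 1 with limma on log2(FPKM + 1), limma on log2(FPKM + 0.1) and all 24 libraries in 1 fit and 0 with limma on log2(FPKM + 1), no filter. For cKO against WT Dex it went from 0 to 1 with scaling by library totals, no low-count filter, DESeq2 Wald test and Rn45s left out. For Dex at day 9 it went from 6 to 3 with limma on log2(FPKM + 1), no filter. For Dex+IL27 against IL27 it went from 1 to 2 with no low-count filter, DESeq2 Wald test, limma on log2(FPKM + 1) and the replicate block. For the Dex by IL27 difference it went from 1 to 2 with no low-count filter and all 24 libraries in 1 fit. With 1 library left out, the count ranged from 6 to 7 for Dex+IL27 against Ctrl, from 2 to 4 for Dex+IL27 against Dex, from 1 to 2 for Dex+IL27 against IL27, from 4 to 5 for Dex at day 9, from 2 to 3 for day 9 minus day 3, from 1 to 1 for Dex in WT cells at day 3, from 0 to 0 for Dex in cKO cells, from 1 to 2 for the Dex by IL27 difference, from 0 to 1 for the genotype difference of the Dex change, from 5 to 6 for IL27, from 0 to 2 for cKO against WT Ctrl and from 0 to 1 for cKO against WT Dex. For all genes, the count with Dex in cKO cells went from 0 to 26 with no low-count filter, that for cKO against WT Ctrl from 283 to between 63 and 793, that for the genotype difference from 353 to between 185 and 765, that for cKO against WT Dex from 826 to as few as 484, and that for Dex in WT cells at day 3 from 1129 to as few as 691.

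Same-numbered libraries did not pair throughout. Their deviations correlated by 0.017 to 0.296 at day 3 and -0.301 to 0.401 at day 9. A library correlated best with its own number in 5 of 12 cases at day 3 and 11 of 36 at day 9. Within cKO cells same-number correlations were 0.191, 0.0656 and 0.296, against -0.254 to 0.139 for different numbers. Within WT cells at day 3 they were 0.017, 0.0295 and 0.0377, against -0.0814 to 0.0487. For Dex in cKO cells, 1 of 11967 genes and none of the 9 members passed with the replicate block. With the replicate block, 2 members passed for Dex+IL27 against IL27 (Ski at adjusted p = 0.0498), Tgfbr1 with IL27 was lost (0.052) and Smad3 for day 9 minus day 3 was gained (0.0471). Comparisons of cKO with WT share no numbers, so no block was fitted. Tgfb1 rests on 13 to 44 counts per library. The STAT motif was chosen after seeing the data.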
